A study of Mus musculus with 12 samples.

Results

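Laminins are the proteins around which a basement membrane is built. A laminin molecule is a trimer of an alpha, a beta and a gamma chain, each from a gene of its own, and the short arms of the trimers join into a sheet while the end of the alpha chain binds receptors on the cell surface. In heart muscle the sheet that wraps each cardiomyocyte is rich in the alpha chain of Lama2, whose loss causes a congenital muscular dystrophy, and the sheets around the vessels hold mainly the alpha chains of Lama4 and Lama5. Here 9 laminin chain genes (Lama2, Lama3, Lama4, Lama5, Lamb1, Lamb2, Lamb3, Lamc1 and Lamc3), taken by gene name from a count table with 43686 rows, are described in ventricular wall of mice with and without Sdhaf4 in muscle. Each of the 9 names matched 1 row.

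RNA-seq was carried out on ventricular wall, with 6 libraries from WT mice, which carried the floxed alleles Sdhaf4fl/fl and no Cre, and 6 from KO mice, Sdhaf4fl/fl with Ckmm-Cre. The labels give the strain as C57BL/6, which the study's methods specify as C57BL/6J. The labels give an age of 2 months. The study's reporting summary names male mice for omics work, with an older age about that of the labels and a younger one. Its main text gives a younger age than the labels for the RNA-seq, so the age is uncertain by some weeks. Sdhaf4 encodes an assembly factor of mitochondrial complex II, and Ckmm-Cre is driven by the promoter of muscle creatine kinase, so that fibroblasts, vessel cells and other cells of the wall that are not striated muscle keep the gene. The comparison asks which transcripts differ once Sdhaf4 is lost from muscle, here for the laminin chains.

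Between 23747014 and 27159228 reads were counted in the WT libraries and between 26542930 and 31393393 in the KO libraries. Sdhaf4 ran from 14.3 to 30.3 CPM (read counts relative to the library total, normalized between libraries by the trimmed mean of M values, TMM) in WT and from 2.25 to 2.73 CPM in KO, with no overlap. The lowest of the WT values, 14.3 CPM, was that of WT replicate 6. That library also held the highest WT value of 8 of the 9 laminin genes, all but Lama5, and KO replicate 3 held the lowest KO value of 5 of the 9. Without these 2 libraries every call given below for a laminin gene had the same direction, and Lamb1 was called in addition.

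Of the 9 laminin genes, 5 were higher in KO (Lama2, Lama3, Lamb2, Lamc1 and Lamc3), 2 were lower (Lama5 and Lamb3) and 2 were not called (Lama4 and Lamb1), by edgeR's quasi-likelihood test at an adjusted p of 0.05. Such calls were common: of all 17155 rows tested, 25.6% were called higher and 25.5% lower, so that 51.1% were called in either direction. Against that background a call by itself did not set a laminin gene apart. The median log2 fold change was 0.23 over the 9 laminin genes and 0.0022 over all rows tested. Laminin transcripts are long, and over the 3092 tested rows at least as long as the shortest laminin row the median was 0.07. The sizes of the changes ranged widely. A log2 fold change over 1 in either direction with an adjusted p under 0.005 was met by 3 of them (Lama3, Lamb3 and Lamc3), against 10.2% of all rows, and by Lama3 and Lamc3 in the upward direction, against 5.36%. Expression in WT and KO did not overlap for 5 of the 9, against 30.1% of all rows.

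The upstream sequences of 3 laminin genes with calls in opposite directions are shown for reference: Lama5 and Lamb3, which were lower in KO, and Lama2, which was higher. Each runs 5′ to 3′ on the strand of the gene, from 250 bases before to 50 bases after the start site, as given by RefSeq on GRCm38.p6. A promoter was found for 5 of the 9 genes, with a second one for Lamb3 at chr1:193301993-193302292, which is not shown. Capitals mark 2 kinds of motif, searched on both strands: the GC box (GGGCGG), bound by Sp factors, and the core of the hypoxia response element (ACGTG or GCGTG). Lama5 lies at chr2:180225810-180226109 on the minus strand, Lamb3 at chr1:193301744-193302043 on the plus strand and Lama2 at chr10:27616893-27617192 on the minus strand.
Lama5: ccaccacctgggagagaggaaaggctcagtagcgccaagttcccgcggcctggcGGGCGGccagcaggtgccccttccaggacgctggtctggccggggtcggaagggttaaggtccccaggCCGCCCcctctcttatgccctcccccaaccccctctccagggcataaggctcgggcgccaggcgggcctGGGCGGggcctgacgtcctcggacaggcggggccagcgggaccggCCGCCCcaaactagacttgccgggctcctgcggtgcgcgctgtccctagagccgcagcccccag
Lamb3: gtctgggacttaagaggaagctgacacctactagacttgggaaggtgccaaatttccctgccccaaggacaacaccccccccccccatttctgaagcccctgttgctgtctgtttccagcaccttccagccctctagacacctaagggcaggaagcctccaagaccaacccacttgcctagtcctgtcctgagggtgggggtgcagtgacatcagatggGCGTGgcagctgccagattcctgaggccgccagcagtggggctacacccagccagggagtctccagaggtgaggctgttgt
Lama2: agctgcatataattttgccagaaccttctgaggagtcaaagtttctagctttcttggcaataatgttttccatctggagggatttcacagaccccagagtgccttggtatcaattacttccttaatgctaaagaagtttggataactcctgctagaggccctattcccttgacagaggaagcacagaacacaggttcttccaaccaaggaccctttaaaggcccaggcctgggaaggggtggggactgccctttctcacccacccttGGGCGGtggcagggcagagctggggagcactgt
The promoter of Lama5 was 72.7% G and C and held 4 GC boxes, at positions -196, -128, -59 and -14 from the start site. The first promoter of Lamb3 was 59.3% G and C and held no GC box and 1 hypoxia core, at position -31, and the second held neither motif. That of Lama2 was 50.3% G and C with 1 GC box, at position 18, past the start site. Over 32851 RefSeq promoters the median was 52.7% G and C, 35.7% held a GC box and 43.8% a hypoxia core. Both motifs are thus common in windows of this length. No AP-1 site (TGACTCA, held by 5.20% of all promoters) and no TATA box (TATAAA, 13.6%) was found in any of the 3 windows shown. Nothing in these data reports what binds there.

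**Figure D1:**
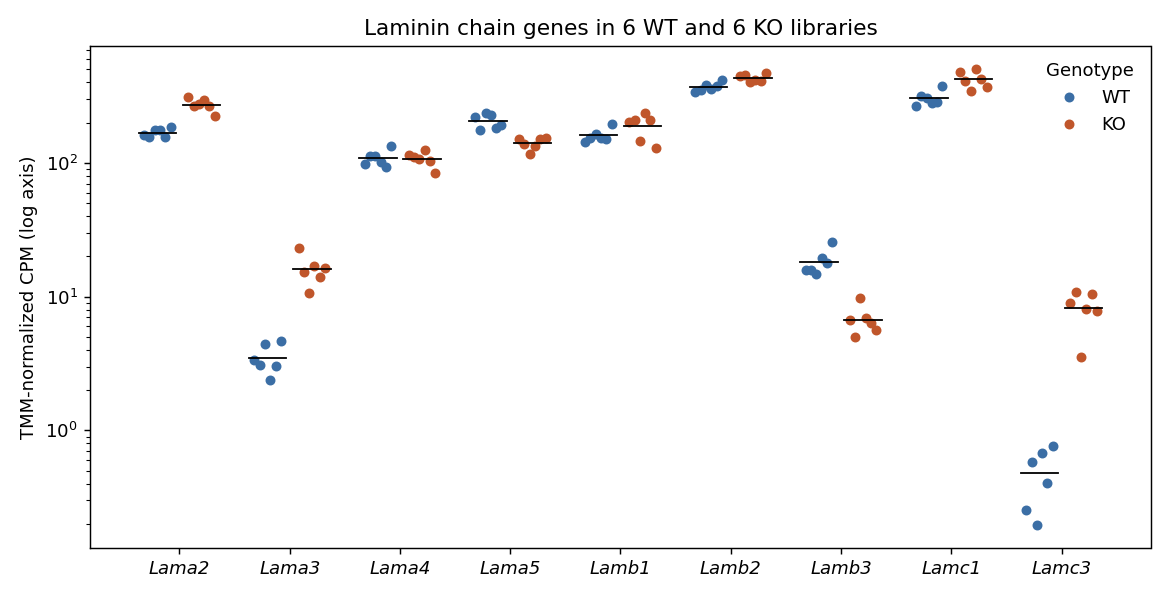
TMM-normalized CPM (log axis) of the 9 laminin chain genes in each library, with WT in blue, KO in orange and a line at the mean of each group of 6. Lama2, Lama3 and Lamc3 lie wholly above WT in KO, Lama5 and Lamb3 wholly below, and Lama4, Lamb1, Lamb2 and Lamc1 overlap.

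The alpha chains diverged. Lama2 and Lama3 rose, Lama5 fell and Lama4 was not called. Lama2 (MGP_C57BL6NJ_G0017503, chromosome 10, 25851031 to 26529419, minus strand on the C57BL/6NJ assembly, as are the positions that follow) encodes the alpha chain of the muscle basement membrane. It was at 155 CPM in the lowest WT library, 169 at the median and 185 in the highest, and at 226, 270 and 310 CPM in KO. Each KO library thus exceeded each WT library, with KO replicate 6 the nearest to WT. The mean was 1.62-fold higher in KO, a log2 fold change of 0.70 (SE 0.07, adjusted p = 3.73e-07 by edgeR's quasi-likelihood test, n = 6 and 6). In a two-sided exact permutation test over the 12 libraries the p was 0.00216, the smallest that 6 against 6 can give.

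Lama5 (MGP_C57BL6NJ_G0027410, chromosome 2, 192071847 to 192126641, minus strand) encodes an alpha chain found in most adult vessels and epithelia. It was at 178, 206 and 235 CPM (lowest, median, highest) in WT and at 117, 145 and 154 CPM in KO. The groups did not overlap, in the direction opposite to Lama2. The log2 fold change was -0.55 (SE 0.08, adjusted p = 3.52e-05 by edgeR). Lama4 (MGP_C57BL6NJ_G0017545, chromosome 10, 38606484 to 38763013, plus strand), whose chain is made by endothelial cells and by muscle, was at 93.5, 107 and 133 CPM in WT and at 84.4, 108 and 125 CPM in KO. These ranges overlapped almost throughout. The log2 fold change of Lama4 was -0.02, with an interval at 95% from -0.20 to 0.16 (adjusted p = 0.889 by edgeR).

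Lama3 (MGP_C57BL6NJ_G0024566, chromosome 18, 9991785 to 10262102, plus strand) encodes the alpha chain of the laminin that anchors epithelia such as the epidermis, in which Lamb3 gives the beta chain. Its level was low but counted in every library, at 2.39, 3.25 and 4.62 CPM in WT and at 10.6, 15.8 and 23.0 CPM in KO. The highest WT library lay below the lowest KO library by more than the whole WT range. The mean was 4.61-fold higher in KO (log2 fold change 2.20, SE 0.19, adjusted p = 1.37e-07 by edgeR). Only 2.51% of all rows differed by at least as much in either direction.

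The beta chains also differed among themselves. Lamb2 (MGP_C57BL6NJ_G0035793, chromosome 9, 113454178 to 113464972, plus strand), known for its place at the neuromuscular junction and in the kidney glomerulus, had the highest level per length of all 9 genes, as given below. It was at 337, 368 and 416 CPM in WT and at 403, 431 and 472 CPM in KO. The ranges overlapped: WT replicate 6 exceeded KO replicates 3 and 5, which were at 403 and 407 CPM. The rise was small, with a log2 fold change of 0.22 (SE 0.06, adjusted p = 0.00461 by edgeR, exact permutation p = 0.00649). Lamb1 (MGP_C57BL6NJ_G0020049, chromosome 12, 30106032 to 30170250, plus strand), the most widespread beta chain, was at 144, 153 and 196 CPM in WT and at 129, 205 and 237 CPM in KO. The KO libraries fell into 4 above every WT library and 2, replicates 3 and 6, at the level of WT or below it. The log2 fold change of 0.23 was not called (SE 0.14, interval from -0.03 to 0.50, adjusted p = 0.171 by edgeR). Lamb1 was called once KO replicate 6 was left out (0.32, adjusted p = 0.0245) or WT replicate 6 and KO replicate 3 together (0.36, adjusted p = 0.0462).

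Lamb3 (MGP_C57BL6NJ_G0017361, chromosome 1, 206661786 to 206805529, plus strand), the beta chain of the epithelial trimer, fell while Lama3 rose. It was at 14.7, 16.9 and 25.8 CPM in WT and at 5.02, 6.53 and 9.83 CPM in KO, with no overlap. The log2 fold change was -1.43 (SE 0.16, adjusted p = 3.20e-06 by edgeR). The row of Lamb3 spans 143744 bases and shares them with 6 other rows, among them Hsd11b1 and G0s2 on the opposite strand, which had more counts than Lamb3. For G0s2 the log2 fold change was -0.51 (adjusted p = 0.000192 by edgeR, groups not overlapping) and that of Hsd11b1 -0.44 (adjusted p = 0.0915, not called). An unnamed row on the same strand (MGP_C57BL6NJ_G0000842), which lies within that span over 2573 bases, was also lower in KO, at 5.88 CPM ± 1.28 (SD) in WT and 1.59 CPM ± 0.464 in KO. Whether reads were counted by strand is not given in the sources used here, so the part of the overlapping rows in the counts of Lamb3 cannot be told apart.

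Of the gamma chains, Lamc1 (MGP_C57BL6NJ_G0016998, chromosome 1, 163481385 to 163600562, minus strand) is the partner in most laminin trimers of the body. It was at 268, 297 and 376 CPM in WT and at 345, 419 and 506 CPM in KO. The overlap rested on WT replicate 6, the highest WT library. The log2 fold change was 0.47 (SE 0.10, adjusted p = 0.000858 by edgeR, exact permutation p = 0.00649). Lamc3 (MGP_C57BL6NJ_G0026011, chromosome 2, 31225682 to 31291124, plus strand), whose chain is known from the surface of the cerebral cortex and the retina, moved the most. It had only 5 to 20 counts in each WT library and 106 to 323 in each KO library. In CPM that was 0.197, 0.491 and 0.764 in WT and 3.51, 8.54 and 10.8 in KO. The mean was 17.3-fold higher in KO, with a log2 fold change of 4.09 (SE 0.32, adjusted p = 6.31e-08 by edgeR). A log2 fold change at least as high was found in 0.274% of all rows, or 47 rows. Lamc3 lies wholly within the span of the much more strongly counted Golga2 row on the same strand, whose log2 fold change was -0.04 (SE 0.05, adjusted p = 0.546 by edgeR). The Golga2 row runs from 28831323 to 31691277, far beyond Lamc3. An unnamed row on the opposite strand (MGP_C57BL6NJ_G0003648) shares 5127 bases with Lamc3. It had 0 counts over the WT libraries and 15 over the KO libraries. The part of either row in the counts of Lamc3 was not tested.

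The 2 libraries named above bore on the size of these changes and not on their direction. KO replicate 3 was the KO library nearest to WT in 5 of the 7 called laminin genes (Lama3, Lamb2, Lamb3, Lamc1 and Lamc3), and KO replicate 6 in the other two. Without WT replicate 6 and KO replicate 3 the log2 fold change was 4.42 for Lamc3, 2.39 for Lama3, -1.45 for Lamb3 and -0.52 for Lama5. For Lama2, Lamc1 and Lamb2 it was 0.72, 0.58 and 0.27. The count of laminin genes called was then 6 higher and 2 lower.

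**Figure D2:**
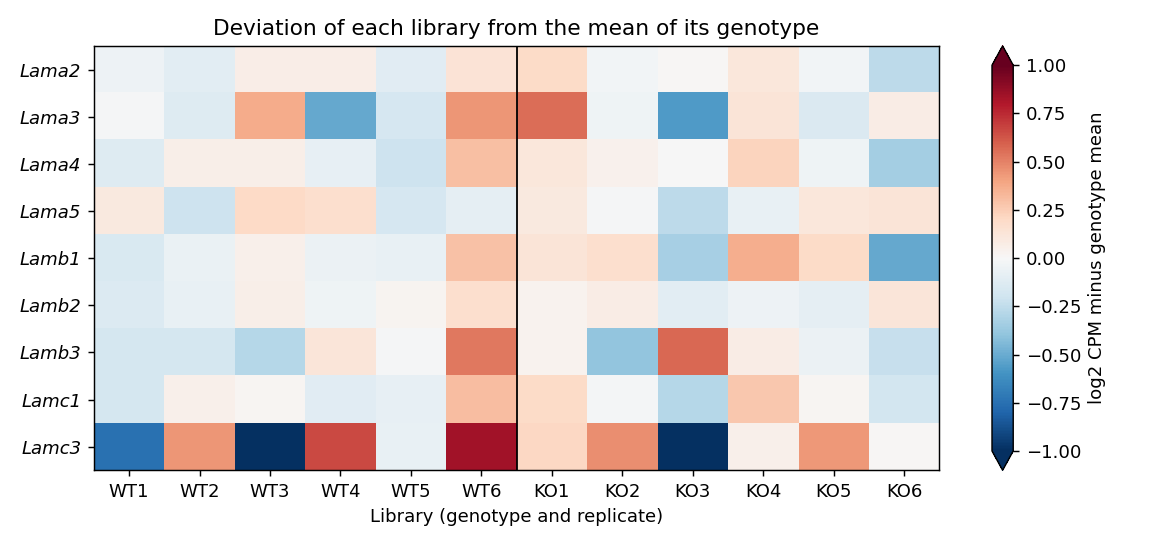
Deviation of each library from the mean of its genotype, in log2 CPM, for the 9 laminin genes, with the WT libraries left of the line and the KO libraries right of it. WT replicate 6 is above its group mean for 8 genes, and Lamc3 goes past the end of the scale in WT replicate 3 and KO replicate 3.

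Levels of different laminin genes were compared per length, in FPKM (fragments scaled by gene length and by library size) as deposited. In WT the order was Lamb2 at 314 ± 26.8 FPKM (mean ± SD), Lamc1 at 136 ± 19.6, Lamb1 at 77.7 ± 10.2, Lama5 at 63.0 ± 7.15, Lama4 at 41.3 ± 6.09 and Lama2 at 38.6 ± 3.12. Far below them were Lamb3 at 9.94 ± 2.36 FPKM, Lama3 at 0.401 ± 0.103 and Lamc3 at 0.133 ± 0.066. Among neighbours in this order, the ranges of Lamb1 and Lama5 overlapped, as did those of Lama4 and Lama2. In KO, Lama2 at 62.7 FPKM stood above Lama5 at 43.3 and Lama4 at 40.8, and the last 3 places were held by Lamb3 at 3.66, Lamc3 at 2.31 and Lama3 at 1.86. The ranges of Lamb3 and Lamc3, and those of Lamc3 and Lama3, overlapped there.

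The length behind the FPKM values was not the length column of the table. For Lamb2 the deposited FPKM implied 1180 bases against 5629 in the column, and for Lama2 4357 against 9614. Per kilobase of the column, Lamb2 stayed first in WT with 65.9 CPM per kilobase, ahead of Lamc1 with 40.1 and Lamb1 with 29.2, but Lama5, Lama4 and Lama2, with 18.1, 18.0 and 17.5, overlapped each other. On that scale Lamc1 and Lamb1 also overlapped in WT, whereas Lamb1 and Lama5 did not. Each of these separations in WT, and that of Lama5 from Lama4 and Lama2, therefore depends on the length used. In KO the order itself did: by FPKM Lama5 and Lama4 overlapped, whereas per kilobase of the column Lama4, at 17.8, stood above Lama5, at 12.4, with no overlap. The last places in KO were also reversed per kilobase of the column, with Lama3 at 1.52, Lamc3 at 1.41 and Lamb3 at 1.39. Neighbours among them overlapped. On both scales Lama2 was the highest alpha chain in KO.

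The make-up of the alpha chain transcripts differed between the groups, with a shift from Lama5 towards Lama2. As a share of the summed FPKM of the 4 alpha chains, Lama2 took 27.0% ± 0.832 in WT and 42.1% ± 2.01 in KO. Lama5 took 44.0% ± 3.53 in WT and 29.3% ± 3.68 in KO. Neither share overlapped between the groups (exact permutation p = 0.00216, adjusted p = 0.00346 over 8 shares, two-sided). The ratio of Lama2 to Lama5 was 0.617 in WT and 1.46 in KO, and that of Lama2 to Lama4 0.944 ± 0.087 and 1.54 ± 0.083. The share of Lama4, 28.8% in WT and 27.4% in KO, did not pass the exact test on FPKM (adjusted p = 0.496) but did per kilobase of the length column, with 33.3% in WT and 29.5% in KO (exact permutation p = 0.0195, adjusted p = 0.0260). On the latter scale Lama2 rose from 32.5% to 47.2% and Lama5 fell from 33.6% to 20.8%. The sum of the alpha chains itself was 143 FPKM in WT and 149 in KO, against 136 and 191 for the gamma chains.

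**Figure D3:**
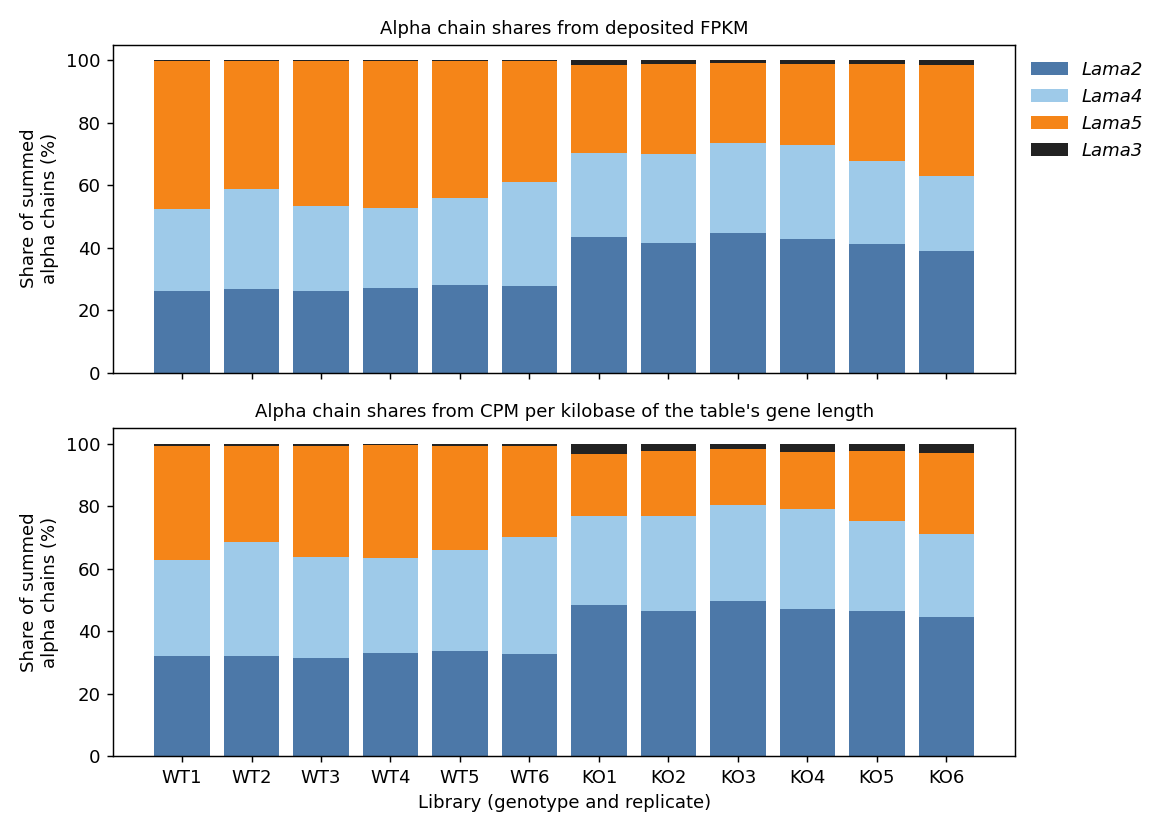
Share (%) of each alpha chain in the summed alpha chain level of every library, from deposited FPKM above and from CPM per kilobase of the length column below. In each KO library the share of Lama2 is above, and that of Lama5 below, its value in every WT library.

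Among the beta chains the shares of Lamb1 and Lamb2 did not pass the test. Lamb2 held 78.2% of the summed FPKM in WT and 79.5% in KO (exact permutation p = 0.513, adjusted p = 0.586), and Lamb1 19.3% and 19.7%. Per kilobase of the length column Lamb2 held 66.7% in WT and 68.5% in KO, and Lamb1 29.5% and 30.3%. The size of these shares therefore depends on the length used. In FPKM, as for the values that follow, the ratio of Lamb1 to Lamb2 was 0.247 ± 0.012 in WT and 0.251 ± 0.060 in KO. The spread was wider in KO. The minor chains did differ. Lamb3 went from 2.46% to 0.805% of the beta chains, Lamc3 from 0.0961% to 1.20% of the gamma chains and Lama3 from 0.279% to 1.24% of the alpha chains, each with an exact permutation p of 0.00216 (adjusted p = 0.00346).

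How the laminin genes varied between libraries of a genotype was described by the correlation of log2 CPM over the 12 libraries, after the mean of each genotype had been removed. Libraries share their depth and cell make-up across genes, so no p is given. Of the 36 pairs of laminin genes, 6 had a Pearson correlation over 0.7, and the median was 0.283. The highest was 0.848, for Lamb1 and Lamc1, and Lama4 followed Lama2 (0.809), Lamc1 (0.806) and Lamb1 (0.799). Among 10249 annotated rows of at least 5 CPM, the closest to Lamc1 were Col4a2 (0.971), Prrg3 (0.958) and Col4a1 (0.957), 2 of them chains of collagen IV, the network to which laminin sheets are joined. For Lamb1 they were Fam129a, Mob1a and Prcp (0.952 to 0.948), and for Lama4 Adam10, Serpinh1 and Jam2 (0.950 to 0.935), of which Serpinh1 is a chaperone of collagen folding. Lama2 was closest to Srpx2, Mfap5 and Pcolce (0.921 to 0.911), and Mfap5 and Pcolce encode a microfibril protein and an enhancer of procollagen processing. Closest to Lama5 were Ogdh, an enzyme of the citric acid cycle (0.942), Preb (0.872) and Lyve1 (0.860). For Lamb2 the closest rows were Dctn1, Copa and Crebbp (0.885 to 0.875). Those of the weakly expressed chains were Bloc1s5, Gm5113 and Csad for Lama3 (0.891 to 0.878), Cenpf, Clcn4 and Echdc1 for Lamb3 (0.869 to 0.865) and Pi4ka, Fbxo28 and Ccm2l for Lamc3 (0.901 to 0.857). All these values are the highest of a search over many rows with only 12 libraries, and none lay below 0.857. Such a search can return high values by itself, and a shared function of the rows was not tested.

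Lama1, an alpha chain of the embryo and not among the 9 genes, had 0 to 4 counts per library and was not tested.

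Of 12 partners of laminin in the basement membrane, 10 were higher in KO and none was lower (25.6% and 25.5% of all rows), with a median log2 fold change of 0.84. All of Col4a1 to Col4a5 rose. Col4a2 went from 503 CPM ± 91.6 in WT to 1166 CPM ± 236 in KO (log2 fold change 1.21, adjusted p = 9.12e-06 by edgeR), and Col4a1 from 807 CPM ± 169 to 1621 CPM ± 447 (1.01, adjusted p = 0.000724). The log2 fold changes of Col4a3, Col4a4 and Col4a5 were 1.53, 1.40 and 0.89. The nidogens, which link laminin to collagen IV, were both higher, by 0.79 for Nid1 and 0.35 for Nid2, as was Hspg2, which encodes perlecan, by 0.44. Agrn, encoding agrin, which ties laminin to dystroglycan, was not called (0.13, adjusted p = 0.438 by edgeR), nor was Col4a6 (0.52, adjusted p = 0.0971). The estimates of Col4a1 to Col4a5 were above those of Lamc1 (0.47) and Lama2 (0.70), and the differences between genes were not tested.

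Of 12 receptor genes on the list of laminin receptors, 9 were higher in KO and none was lower (25.6% and 25.5% of all rows), with a median log2 fold change of 0.34. Dag1, which encodes dystroglycan, the receptor that joins laminin to dystrophin in muscle, rose from 444 CPM ± 34.6 to 566 CPM ± 45.4 (0.35, adjusted p = 0.000207 by edgeR). Itgb1, the common beta subunit of laminin integrins, rose by 0.18 (adjusted p = 0.0132), whereas Itga7, its main partner in muscle, was at 155 CPM in WT and 157 CPM in KO and was not called (0.02, adjusted p = 0.815). The largest rises on the list were those of Itgb3 (2.00, adjusted p = 5.05e-08) and Itga9 (1.04, adjusted p = 6.59e-06), integrin subunits that bind chiefly other matrix proteins, followed by Itga3 (0.79). Bcam, whose product binds the alpha chain of Lama5, was at 243 CPM in WT and 255 CPM in KO (0.07, adjusted p = 0.306) while Lama5 fell.

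Of 7 proteases that cut or remodel basement membrane, 5 were higher in KO and none was lower (25.6% and 25.5% of all rows), with a median log2 fold change of 0.52. Tll1 and Bmp1, of the tolloid family that trims laminin chains, rose by 2.18 (adjusted p = 1.27e-06 by edgeR) and by 0.52 (adjusted p = 0.000512). Tll1 was weakly expressed, with 7 to 23 counts in each WT library and 66 to 97 in each KO library. Mmp2, a gelatinase that also cuts collagen IV, rose by 1.42 (adjusted p = 0.000155), and Mmp14, the activator of Mmp2, by 0.96 (adjusted p = 1.91e-06). Of the netrins, which share the domains of the laminin short arm, Ntn1 fell from 178 CPM ± 35.4 to 121 CPM ± 16.5 (-0.55, adjusted p = 0.00294), and Ntng2 was not called (-0.18, adjusted p = 0.324).

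**Figure D4:**
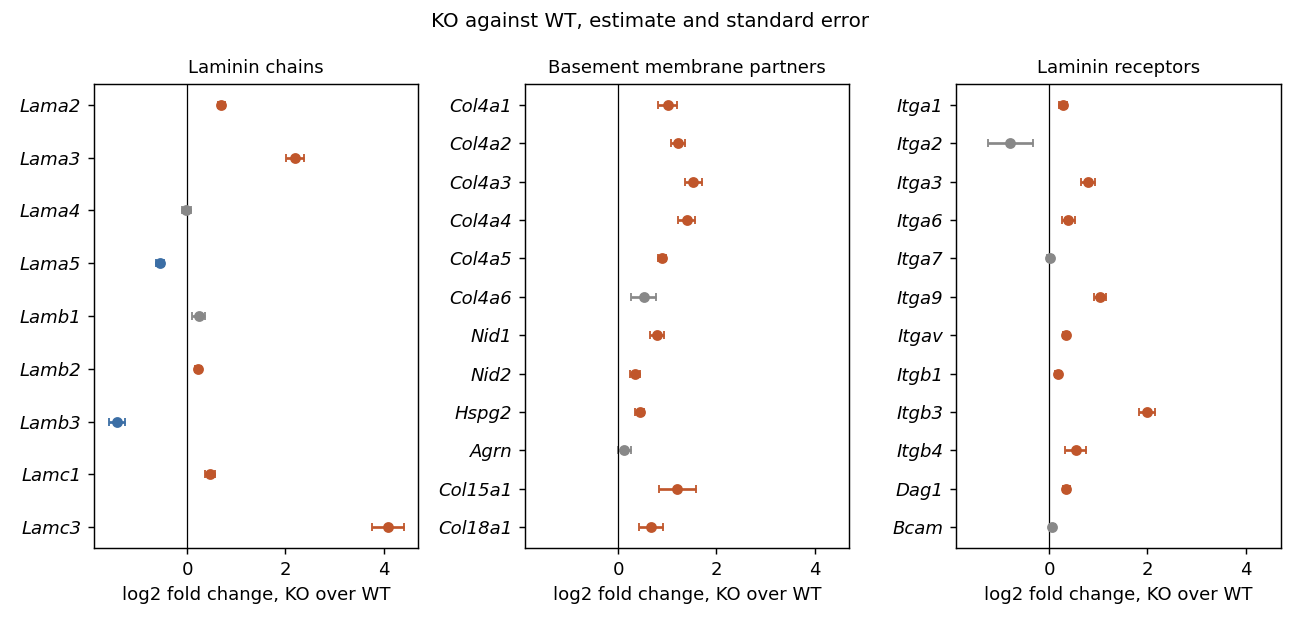
Log2 fold change of KO over WT (point) with its standard error (bar) for the 9 laminin genes, 12 basement membrane partners and 12 receptors, in orange where called higher, in blue where called lower and in grey where not called. Calls in both directions are seen among the laminin chains, and only higher calls among the partners and receptors.

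Markers of several cell types of the wall were counted against the same background, 25.6% of all rows higher and 25.5% lower. Of 10 fibroblast markers 8 were higher in KO and 1 was lower, and their summed level ran from 1349 to 1512 CPM in WT and from 2423 to 4051 CPM in KO. Of 10 endothelial markers 7 were higher and 1 was lower, with 1774 to 1981 CPM in WT and 2111 to 2554 CPM in KO. Of 9 cardiomyocyte markers tested 1 was higher and 4 were lower, with 47950 to 52645 CPM in WT and 39567 to 54829 CPM in KO. Their summed level was the highest of all the marker lists, as the tissue label has it. For the sparser cells, 3 of 6 pericyte markers were higher and 1 was lower, 2 of 6 smooth muscle markers were higher and 2 lower, and 1 of 7 macrophage markers was higher and 2 were lower. These counts of smooth muscle and macrophage markers lay near the background. Without KO replicate 3 a single marker was lower in each of them, and without WT replicate 6 the lower ones were 3 of smooth muscle and 1 of macrophages. Of 4 Schwann cell markers tested 3 were lower, with a summed level of 13.3 to 24.9 CPM in WT and 9.57 to 16.4 CPM in KO. Only 2 of 7 mesothelial or epithelial markers had enough counts to be tested and neither was called, and no marker on any of these lists was at 0 in all libraries. The part of these markers in the laminin results was not tested. In a bulk sample a change in the number of cells of a type and a change in the RNA per cell cannot be told apart.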

How the data were processed

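RNA-seq of ventricular wall, with 6 WT and 6 KO libraries, was analysed, with groups taken from the sample labels. The authors mapped the reads (HISAT2 2.0.5 and the build mm10 are in the submitters' processing notes, whereas the identifiers are of C57BL/6NJ) and deposited raw counts per gene from HTSeq, with FPKM per library. The deposited group means (a signal and FPKM), log2 fold changes and p-values hold the authors' own comparison and were not used. Library totals ran from 23747014 to 31393393 counts, and values under 1 CPM rest on few counts. The labels do not say that each library is from an animal of its own, so p-values measure only the spread between these samples, which may be technical.

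The counts of all rows were fitted with edgeR 4.0.16 (R 4.3.3). The filter filterByExpr kept 17155 rows, all 9 laminin genes among them. Libraries were scaled by TMM, KO was tested against WT with the robust quasi-likelihood test, and p-values were adjusted by Benjamini and Hochberg's method across the rows kept, with calls at an adjusted p of 0.05, or at 0.005 with a log2 fold change over 1. Permutation tests were exact and two-sided. Shares were taken within each chain class per library. The fit was tested on simulated data.

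The laminin genes and all lists were chosen with earlier results of these data known. Lists and markers were written from general knowledge. The genes named are all 9 laminin genes, the 4 genes with the smallest p and the 2 with the highest FPKM of each list, further genes of lists of 12 or fewer singled out for their role, and the 3 rows most like each laminin gene. Of the lists, Rxylt1, Actn2 and 2 netrins were not matched and were not analysed here, and some genes of the lists are not reported here.

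Results were recomputed with other tests (limma-voom from limma 3.58.1, DESeq2 1.42.0, edgeR with dispersions that are not robust), other scalings (upper quartile, the size factors of DESeq2, or library size alone), other filters (none, or at least 1 CPM in 6 libraries), no unannotated loci, a replicate block, another length and each library left out. Leaving out WT replicate 6 and KO replicate 3 together was chosen after seeing the data.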

Additional observations from a re-analysis of the deposited data

How the results depend on the processing

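Of 413 values recomputed under an alternative, 404 kept their direction and their side of the threshold (counts within 1.5 times), and 3 passed it: Lamb1 without KO replicate 6 (log2 fold change 0.32, adjusted p = 0.0245 by edgeR), Lamb1 without WT replicate 6 and KO replicate 3 (0.36, adjusted p = 0.0462), and the share of Lama4 with the length column (-3.81 points in KO, exact permutation p = 0.0195, adjusted p = 0.0260). A further 6 changed sign, all of values that were not called in either case: the log2 fold change of Lama4 (0.046 without WT replicate 6, 0.039 without KO replicate 6 and 0.044 without WT replicate 6 and KO replicate 3), the share of Lamb1 (-0.48 points without KO replicate 4, -0.16 without KO replicate 5) and the share of Lamb2 (-0.053 without KO replicate 6). With 1 library left out, these ran from -0.064 to 0.046 on the log2 scale for Lama4, from -0.48 to 1.68 points for Lamb1 and from -0.053 to 2.13 points for Lamb2. With 1 library left out at a time, the laminin genes called higher were 5 to 6 and those called lower 2 in every case. The log2 fold change then ran from 3.92 to 4.27 for Lamc3, from 2.07 to 2.30 for Lama3, from -1.58 to -1.31 for Lamb3 and from 0.16 to 0.32 for Lamb1.

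With the replicate number as a block, 5 laminin genes were higher and 2 lower, with 0.47 for Lamc1 (adjusted p = 0.00811 by edgeR) and 0.23 for Lamb2 (adjusted p = 0.00895), and no call changed. Deviations of libraries with the same number correlated by -0.162 to 0.0243, and 1 of 6 numbers correlated best with itself, so the numbers were not treated as a pairing. The alternative without laminin genes removed by the filter gives no value, since none was removed. At 5 to 20 counts, Lamc3 in WT is the value that depth limits the most. In 18 groups, of 9 genes and 2 genotypes, no library stood apart by Dixon's test, where chance gives 0.9.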
